A study of Rattus norvegicus with 40 samples.

Results

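The genes described here are 9 genes of the red-cell lineage, followed through the livers of rats in 3 settings of growth. Some animals had been given rapamycin, a drug that blocks the kinase mTOR. They were given as a list: Ahsp, Hbe1, Alas2, Slc4a1, Epb42, Klf1, Gata1, Car1 and Tfrc. Each was represented by the array row (a transcript cluster, whose probes are summarised to 1 value) that carried its symbol and no other. All 9 were found, each with 1 row, among 28826 rows, of which 15209 carried exactly 1 symbol. All 9 were also among the 10860 rows tested, which had a mean log2 intensity over the 40 arrays of at least 6.70. Hbe1 and Gata1 had means under 6.70 in 8 of 8 adult groups and Car1 in 7 of 8, so these genes passed that limit through their fetal arrays. Ahsp was under it in 2 of 8, both of them fasted/refed total RNA. Values under 6.70 are not shown to lie above background, and differences that rest on them are given as values of these arrays only.

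All animals were Sprague Dawley rats, and the tissue was liver. In the partial hepatectomy model, adult rats of 125 to 150 g were injected 1 h before part of the liver was removed, and the remnant was taken 24 h after surgery. They had received either rapamycin (250 µg for every 100 g the animal weighed) or its solvent dimethyl sulfoxide (DMSO). In the fasted/refed model, adult rats of the same weight range went without food for 48 h, received the same injections, and were given food 1 h later for 3 h. In the fetal model, fetuses were given 50 µg of rapamycin, or DMSO, at gestational day 19 and livers were taken at day 20. RNA from polysomes (mRNA carrying several ribosomes, separated on sucrose gradients) and total RNA of each liver were hybridised to Rat Gene 1.0 ST arrays, which gave 12 groups. Each adult group had 3 livers and each fetal group 4, and there were 20 livers in all. The labels mention pooling of polysome preparations but not its unit. Here n counts numbered replicates. The p-values rest on a spread pooled over all groups in a fit, with both fractions of a liver counted as separate arrays unless the fit pairs them. Array medians ran from 7.09 to 7.40 log2, and no array stood apart in scale. A list of 17 hepatocyte genes averaged 12.30 to 13.48 log2 in the 12 groups, with at most 1 of the 17 under 6.70 in any group.

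In fetal mammals the liver is the main site of red-cell formation, which moves to the bone marrow around birth. Erythroblasts switch on the transcription factors GATA1 and KLF1, which bind GATA and CACCC elements and drive globin, heme and membrane genes. They take up iron through the transferrin receptor, which most dividing cells also carry, and the youngest red cells of blood keep some of these mRNAs after losing their nucleus. In bulk tissue, a difference in the number of red-cell precursors or of blood cells and a difference in RNA per cell cannot be told apart.

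Promoter windows were available in the RefSeq tables (build GRCr8) for 6 of the 9 genes, Hbe1, Alas2, Epb42, Klf1, Gata1 and Tfrc. The 250 bases before the start that these tables give are shown for 3 genes that were far higher in fetal livers and, beside them, for Tfrc, whose pattern differed. Capitals mark matches to the GATA motif (GATA with A or T before it and A or G after it) and to CACCC. Each was searched on both strands, so some capitals spell TATC or GGGTG, the same motifs read on the opposite strand. All 4 windows lie on the minus strand and are written 5′ to 3′ toward the gene. For Epb42, Klf1 and Tfrc the start is the edge of the annotated gene. For Hbe1 it lies 175811 bases inside the annotated span (chr1:167694820-167872091), so that window is within the annotated gene and not at its edge.
Hbe1, chr1:167696281-167696530: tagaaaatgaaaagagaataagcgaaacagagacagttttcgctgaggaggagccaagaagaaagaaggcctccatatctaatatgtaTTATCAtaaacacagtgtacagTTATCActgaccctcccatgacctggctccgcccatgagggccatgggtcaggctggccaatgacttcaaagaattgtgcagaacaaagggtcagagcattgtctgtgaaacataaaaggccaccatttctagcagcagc
Epb42, chr3:128451684-128451933: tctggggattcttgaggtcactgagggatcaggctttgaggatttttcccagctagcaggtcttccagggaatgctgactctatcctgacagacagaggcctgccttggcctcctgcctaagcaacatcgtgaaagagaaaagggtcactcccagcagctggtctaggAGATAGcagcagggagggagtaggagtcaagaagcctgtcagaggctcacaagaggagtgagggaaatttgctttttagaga
Klf1, chr19:40158652-40158901: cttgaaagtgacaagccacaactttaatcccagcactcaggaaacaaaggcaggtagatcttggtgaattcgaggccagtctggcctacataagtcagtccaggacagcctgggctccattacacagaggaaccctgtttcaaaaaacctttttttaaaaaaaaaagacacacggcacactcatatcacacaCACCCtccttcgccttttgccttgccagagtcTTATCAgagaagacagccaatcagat
Tfrc, chr11:81690319-81690568: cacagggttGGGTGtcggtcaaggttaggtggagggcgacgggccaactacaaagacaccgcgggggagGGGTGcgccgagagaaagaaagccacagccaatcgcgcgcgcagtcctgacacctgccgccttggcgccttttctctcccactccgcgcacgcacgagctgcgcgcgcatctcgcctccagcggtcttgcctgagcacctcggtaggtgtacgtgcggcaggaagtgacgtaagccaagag
The Hbe1 window held 2 GATA matches and no CACCC. The motif CCAAT, also searched on both strands, was found once in each of the Hbe1, Klf1 and Tfrc windows, 83 to 79, 10 to 6 and 153 to 149 bases before the start in that order. The Epb42 window held 1 GATA match, 82 to 77 bases before the start. The Klf1 window held a GATA match 26 to 21 bases before the start and a CACCC match 58 to 54 bases before it. The Tfrc window held 2 CACCC matches and no GATA match. Of the windows not printed, Alas2 held 1 GATA match and Gata1 held 3 CACCC matches. Among all 33469 windows of that length, 27% held a GATA match, 49.2% a CACCC match, 34% a CCAAT and 11.2% both GATA and CACCC, so single matches were common. Such a match is a description of the letters in the window.

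Across the 12 groups, 8 of the 9 genes had 1 pattern, with all 4 fetal groups above all 8 adult groups. The lowest fetal group mean exceeded the highest adult group mean by 5.82 log2 for Car1, 5.81 for Hbe1, 4.48 for Slc4a1, 4.40 for Ahsp, 4.10 for Klf1, 3.90 for Gata1, 3.25 for Epb42 and 2.87 for Alas2, with no overlap of arrays at that step. The 4 fetal group means lay close together, from 12.10 to 12.72 log2 for Hbe1 and from 12.81 to 12.93 for Car1. Tfrc was the exception. Its lowest fetal mean was 12.09, its highest adult mean was 11.81 in fasted/refed total RNA with DMSO, and the arrays of these 2 groups overlapped.

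**Figure D1:**
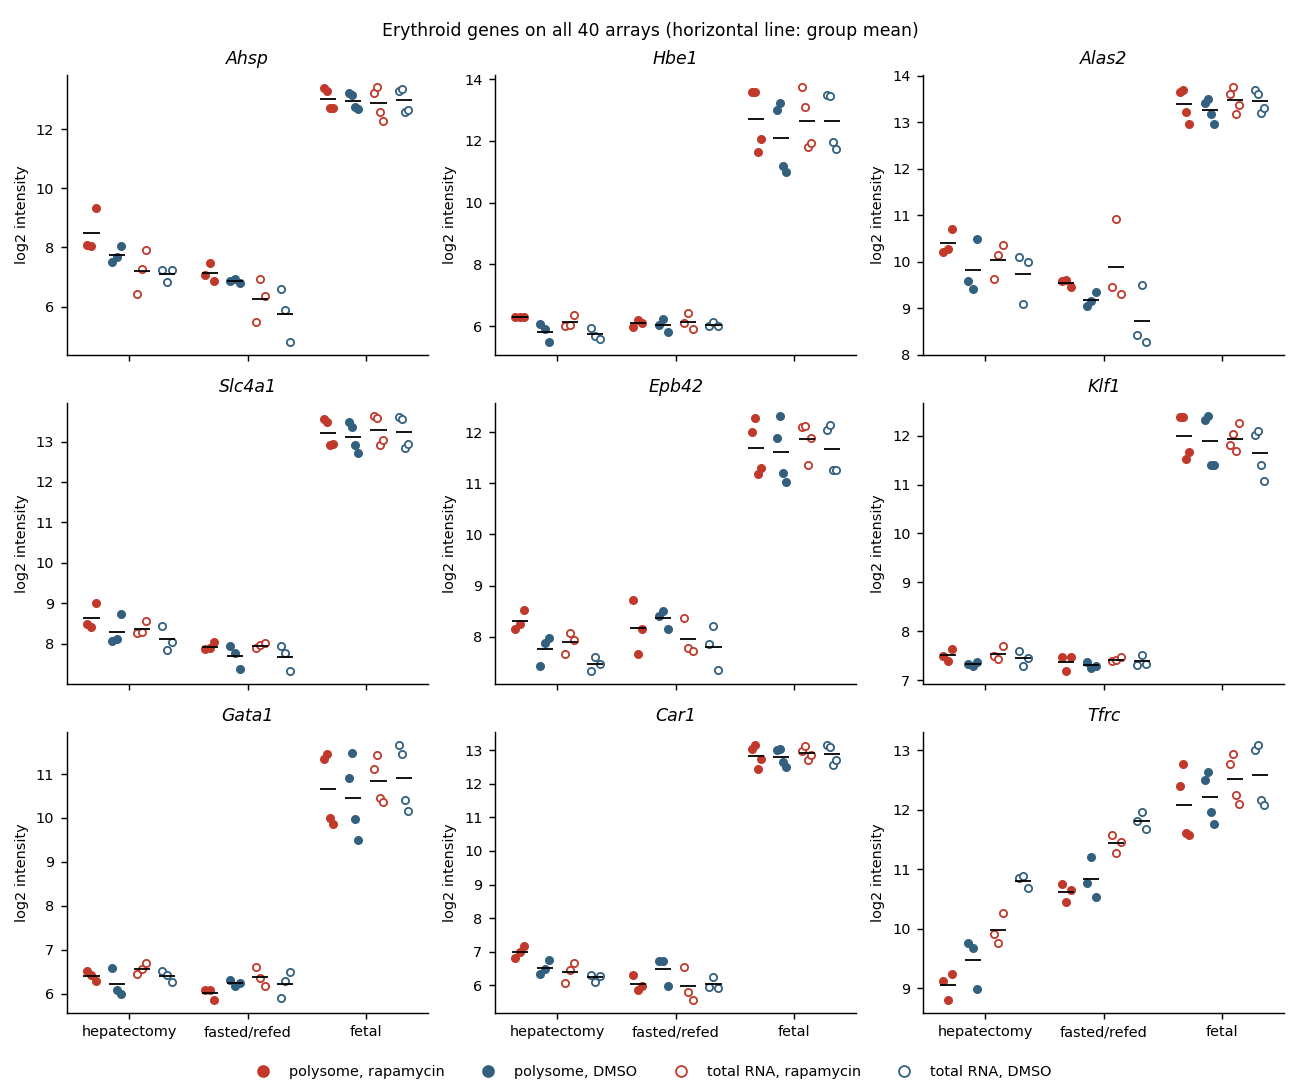
Log2 intensity of each of the 9 genes (1 panel each) on all 40 arrays, by model along the horizontal axis, with filled points for polysome RNA, open points for total RNA, red for rapamycin, blue for DMSO and a line at each group mean. For 8 genes the fetal points lie above every adult point, and for Tfrc the hepatectomy points lie lowest within each fraction.

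Ahsp and Hbe1 were far lower in both adult models than in fetal livers. Ahsp, whose protein binds and stabilises free alpha-globin, had 7.22, 6.83 and 7.24 log2 in hepatectomy total RNA with DMSO and 6.59, 5.88 and 4.79 in fasted/refed total RNA with DMSO, against 13.31, 13.38, 12.60 and 12.66 in fetal total RNA with DMSO. Hbe1, an embryonic beta-like globin, had 5.95, 5.67 and 5.60 after hepatectomy and 6.02, 6.12 and 5.997 after refeeding, against 13.47, 13.45, 11.95 and 11.74 in fetal livers. Every adult array was below every fetal array for both genes. In limma with all 40 arrays, Ahsp differed by −5.89 ± 0.37 log2 (SE) between hepatectomy and fetal livers (59.4-fold, adjusted p = 1.56e-14) and by −7.23 ± 0.37 after refeeding (adjusted p = 5.53e-17). Hbe1 differed by −6.91 ± 0.49 (adjusted p = 2.40e-13) and −6.61 ± 0.49 log2 (adjusted p = 4.98e-13). The adult means of Hbe1 were all under 6.70, and so was that of Ahsp in refed total RNA (5.75).

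Alas2 encodes the erythroid form of the first enzyme of heme synthesis. It had 10.10, 9.10 and 9.99 log2 in hepatectomy total RNA with DMSO and 8.42, 9.51 and 8.27 after refeeding, against 13.69, 13.61, 13.21 and 13.30 in fetal livers. All 6 adult arrays lay below all 4 fetal ones, and all were above 6.70. The differences were −3.72 ± 0.31 log2 after hepatectomy (adjusted p = 1.36e-11) and −4.72 ± 0.31 log2 after refeeding (adjusted p = 2.86e-14).

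The membrane genes were also lower in adults. Slc4a1 encodes band 3, the anion exchanger that anchors the red-cell skeleton, and Epb42 encodes protein 4.2, which links band 3 to that skeleton. Slc4a1 had 8.43, 7.85 and 8.04 log2 after hepatectomy and 7.96, 7.77 and 7.33 after refeeding, against 13.61, 13.55, 12.84 and 12.93 in fetal livers. Epb42 had 7.33, 7.61 and 7.46 after hepatectomy and 7.85, 8.21 and 7.36 after refeeding, against 12.05, 12.13, 11.26 and 11.25 in fetal livers. No adult array reached a fetal one. Slc4a1 differed by −5.12 ± 0.23 (adjusted p = 1.83e-18) and −5.55 ± 0.23 log2 (adjusted p = 1.85e-19), and Epb42 by −4.21 ± 0.30 (adjusted p = 2.09e-13) and −3.87 ± 0.30 log2 (adjusted p = 1.12e-12), for hepatectomy and for refeeding in that order.

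Both transcription factors were lower in adults too. Klf1 had 7.58, 7.28 and 7.46 log2 after hepatectomy and 7.31, 7.51 and 7.32 after refeeding, against 12.01, 12.10, 11.40 and 11.07 in fetal livers. Gata1 had 6.51, 6.43 and 6.27 after hepatectomy and 5.91, 6.28 and 6.50 after refeeding, against 11.66, 11.45, 10.40 and 10.16 in fetal livers. Neither gene's adult arrays came near the fetal ones, and the 8 adult group means of Klf1 lay between 7.30 and 7.54 log2. Klf1 differed by −4.20 ± 0.23 after hepatectomy (adjusted p = 3.16e-16) and by −4.27 ± 0.23 log2 after refeeding (adjusted p = 1.62e-16), and Gata1 by −4.52 ± 0.38 (adjusted p = 1.48e-11) and −4.69 ± 0.38 log2 (adjusted p = 3.98e-12). The adult means of Gata1 were under 6.70.

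Car1, a carbonic anhydrase of red-cell precursors, had 6.30, 6.10 and 6.28 log2 after hepatectomy and 5.95, 6.25 and 5.91 after refeeding, against 13.15, 13.11, 12.56 and 12.73 in fetal livers. It differed by −6.66 ± 0.21 log2 (adjusted p = 1.33e-22) and −6.85 ± 0.21 log2 (adjusted p = 6.69e-23), with adult means of 6.23 and 6.04, both under 6.70. Tfrc, the transferrin receptor that takes up iron, had 10.85, 10.89 and 10.69 after hepatectomy and 11.81, 11.96 and 11.67 after refeeding, against 13.001, 13.09, 12.16 and 12.08 in fetal livers. The highest refed array, 11.96, lay just under the lowest fetal array, 12.08. Tfrc differed by −1.77 ± 0.27 log2 after hepatectomy (3.42-fold, adjusted p = 2.92e-06) and by −0.77 ± 0.27 log2 after refeeding (1.70-fold, adjusted p = 0.0201). The second of these did not pass when arrays were centred on their medians (−0.53 log2) or without fetal DMSO replicate 1 or 2 or refed DMSO replicate 1 or 3 (adjusted p 0.0540 to 0.0820).

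In all, 9 of 9 genes passed downward in total RNA in both adult models, where 19.9% of all rows tested passed downward after hepatectomy and 28.1% after refeeding. In polysome RNA the count was also 9 of 9 in both, where 23.5% and 23.6% of all rows passed downward, with differences from −2.74 log2 (Tfrc) to −6.29 log2 (Car1) after hepatectomy and from −1.38 (Tfrc) to −6.34 log2 (Car1) after refeeding. The members' median was −4.52 log2 in total RNA after hepatectomy and −4.72 log2 after refeeding, and the median of all rows was −0.04 log2 in both. Since 3 of the genes passed the limit on low values through their fetal arrays, these counts describe the genes and support nothing further. In total RNA the arrays of 9 of 9 genes did not overlap in either model, where 24.8% of all rows were without overlap downward after hepatectomy and 24.4% after refeeding. The 2 adult comparisons share their fetal samples.

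**Figure D2:**
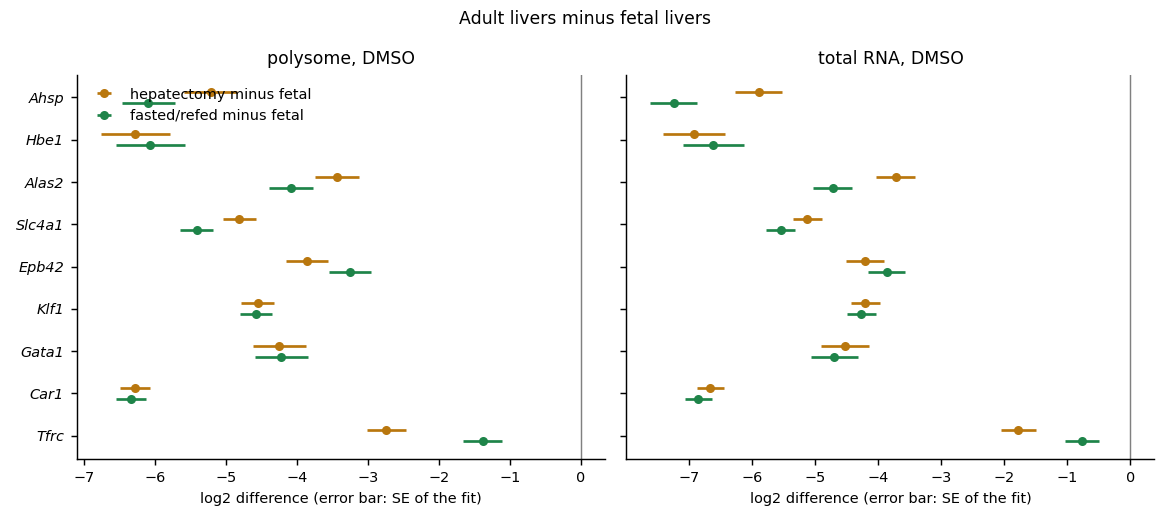
Log2 difference of adult minus fetal livers with DMSO, for hepatectomy (orange) and refeeding (green), in polysome RNA (left) and total RNA (right), with bars for the standard error of the fit. All points lie below 0, and Tfrc lies nearest to 0 in both panels.

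Lists of other genes of the lineage, some of which also hold members of the 9, were mostly lower in adult livers too. In the comparison used here, total RNA after hepatectomy, 19.9% of all rows passed downward and 17% upward. In total RNA after hepatectomy, 14 of 16 tested membrane genes fell and none rose, with the ammonia-channel relative Rhag at −6.24 log2, the blood-group protein Rhd at −5.84 and beta-spectrin Sptb at −4.92. Of the erythroid regulators, 15 of 16 fell, among them the repressor Gfi1b (−4.12 log2) and the factor Nfe2 (−3.45). In hepatectomy total RNA with DMSO, 3 of 16 membrane genes and 3 of 16 regulators had means under 6.70, and none did in fetal total RNA with DMSO. Such genes could pass the limit on low values through their fetal arrays, so the counts of these lists are descriptions. Of the heme-synthesis genes, 11 of 15 fell, including the mitochondrial iron importer Slc25a37 (−3.26 log2), the synthase Uros (−2.92) and the transporter Abcb10 (−2.81). The iron list split, with 7 of 17 down and 3 up: the ferrireductase Steap3 was at −1.67 log2 and the ferritin receptor Ncoa4 at −1.38.

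Markers of granulocytes, mast cells and megakaryocytes moved with them, while those of lymphocytes and macrophages did not. In total RNA with DMSO the lymphocyte list averaged 7.68 log2 after hepatectomy, against 7.71 in fetal livers. The macrophage list averaged 10.36, against 9.999. Of the granulocyte and mast-cell markers 10 of 11 fell in total RNA after hepatectomy, with a median of −4.09 log2, and 7 of 7 megakaryocyte markers fell, with a median of −2.92 log2. The share of all rows that passed downward there was 19.9%. The summed level of the granulocyte list (mean of 16 genes per array) ran from 6.41 to 6.54 log2 in hepatectomy total RNA with DMSO, against 9.004 to 9.35 in fetal total RNA with DMSO, and 12 of its 16 genes had adult means under 6.70. Genes of that list could thus pass the limit through their fetal arrays, so its count is a description. The megakaryocyte list ran from 7.63 to 7.68, against 10.31 to 10.70. In that adult group 2 of its 7 genes had means under 6.70, so its count is a description too. Of 17 hepatocyte genes, 7 rose and 1 fell, where 17% of all rows passed upward. The part of these cells in the levels of the 9 genes was not tested.

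The genes whose values ran most like the mean of the 9 over all 40 arrays were Sptb and Pip5k1b (Pearson r = 0.997 each), Rhag (0.996), and Rhd and Ank1 (0.995 each). These coefficients rest on the gap between fetal and adult arrays and are given as a description.

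Between the adult models with DMSO, 3 of the 9 genes differed in total RNA. Ahsp was higher after hepatectomy than after refeeding, at 1.34 ± 0.40 log2 (adjusted p = 0.0174) against a refed mean of 5.75, under 6.70, and so was Alas2, at 1.00 ± 0.33 log2 (adjusted p = 0.0355). Tfrc was lower, at −1.01 ± 0.29 log2 (adjusted p = 0.0148). Of all rows, 12.4% passed upward and 5.03% downward. Comparisons between models pooled the spread of all 40 arrays, fetal ones included. For Hbe1 the SD was 0.19 after hepatectomy and 0.06 after refeeding, against 0.94 in fetal total RNA with DMSO. The arrays of Ahsp, Tfrc and Hbe1 (−0.30 ± 0.52 log2, adjusted p = 0.745) did not overlap between the models, where 16.4% of all rows were without overlap upward and 10.9% downward, while those of Alas2 overlapped. Each of the 3 calls was lost when certain single livers were left out: the Ahsp call was lost without refed DMSO replicate 3 or hepatectomy DMSO replicate 1 or 3 (adjusted p 0.0581 to 0.187), the Alas2 call without refed DMSO replicate 1 or 3 or hepatectomy DMSO replicate 1 or 3 (0.124 to 0.189) and under both other scalings, and the Tfrc call without hepatectomy DMSO replicate 3 (0.0560).

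In polysome RNA only Tfrc passed between the adult models. It had 9.75, 9.68 and 8.99 log2 after hepatectomy, against 10.76, 11.20 and 10.53 after refeeding. The lowest refed array lay above the highest hepatectomy array. The difference was −1.36 ± 0.29 log2 (2.56-fold lower, adjusted p = 0.0012), and it passed in 6 of 6 fits that left out 1 liver. Of all rows, 4.83% passed downward and 7.86% upward. The groups of Ahsp, Alas2, Slc4a1 and Epb42 did not overlap either, at 0.88, 0.65, 0.60 and −0.60 log2 (adjusted p 0.116 to 0.244), where 16.3% of all rows were without overlap upward and 14.9% downward. In the same comparison 25 of 25 mitosis genes were higher after hepatectomy than after refeeding, with a median of 4.42 log2. In refed polysome RNA with DMSO 22 of the 26 genes of that list had means under 6.70, so this count and median are descriptions only. The part of the mitosis genes in the Tfrc difference was not tested.

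Polysome RNA and total RNA came from the same livers, and the loading of an mRNA onto polysomes was read as the log2 difference between them. Tfrc was lower in polysome RNA than in total RNA in 20 of 20 livers, a pattern shown by 4.58% of all rows tested. In hepatectomy livers the differences were −0.80, −0.96 and −1.02 log2 with rapamycin, against −1.10, −1.21 and −1.70 with DMSO. In fasted/refed livers they were −0.83, −0.82 and −0.81 with rapamycin, against −1.05, −0.77 and −1.14 with DMSO. In fetal livers they were −0.37, −0.17, −0.64 and −0.53 with rapamycin, against −0.51, −0.46, −0.20 and −0.32 with DMSO. The adult values ran from −1.70 to −0.77 and the fetal ones from −0.64 to −0.17. The share of all rows that separate in this way was not counted, so these ranges are a description.

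By limma, the loading of Tfrc was −0.93 ± 0.20 log2 in hepatectomy livers with rapamycin (adjusted p = 0.0027) and −1.34 ± 0.20 log2 with DMSO (adjusted p = 0.00026), and −0.82 ± 0.17 (adjusted p = 0.0276) and −0.98 ± 0.17 log2 (adjusted p = 0.0029) in fasted/refed livers. Downward calls made up 14.4%, 15%, 1.05% and 5.14% of all rows in these 4 comparisons, and 1 of the 9 genes passed downward in each. In fetal livers the call depended on the pairing of fractions. Without it the values were −0.43 ± 0.31 (adjusted p = 0.390) and −0.37 ± 0.31 log2 (adjusted p = 0.465), and with the liver as a block, the standard errors were 0.09 and the adjusted p 0.0058 with rapamycin and 0.0133 with DMSO, where 13.1% and 12.1% of all rows passed downward. In refed livers with rapamycin the call was lost with all 40 arrays in the fit and without any 1 of the 3 rapamycin livers (adjusted p 0.118 to 0.298), while the value stayed between −0.83 and −0.81.

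**Figure D3:**
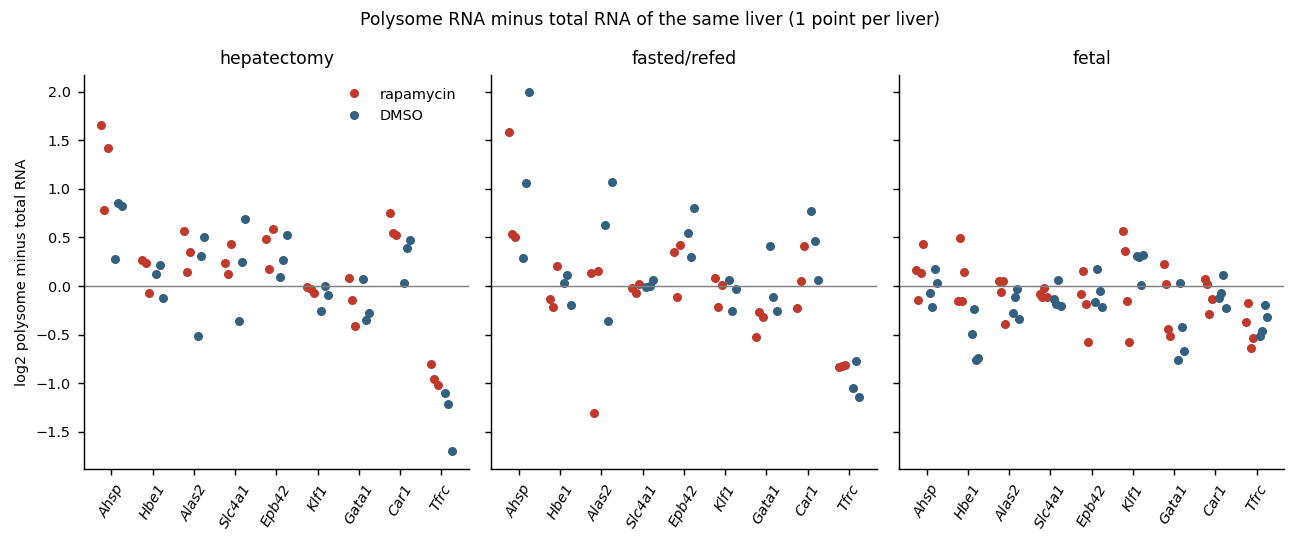
Log2 polysome minus total RNA of the same liver for the 9 genes, 1 point per liver (red rapamycin, blue DMSO), in hepatectomy, fasted/refed and fetal livers. Tfrc lies below 0 in all 20 livers and Ahsp above 0 in all 12 adult livers.

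Ahsp ran the other way in adults, with more signal in polysome RNA than in total RNA in 12 of 12 adult livers and in 5 of 8 fetal livers. Of all rows, 28.9% were above in all 12 adult livers, so this direction was a common one. The differences were 1.66, 0.78 and 1.42 log2 in hepatectomy livers with rapamycin, against 0.28, 0.85 and 0.82 with DMSO, and 1.58, 0.53 and 0.50 in fasted/refed livers with rapamycin, against 0.29, 1.06 and 1.99 with DMSO. The 8 fetal values lay between −0.22 and 0.43. The value in hepatectomy livers with rapamycin, 1.28 ± 0.38 log2, passed (adjusted p = 0.0167), except without rapamycin replicate 1 (1.10 log2, adjusted p = 0.0548). With the liver as a block, Ahsp also passed in hepatectomy livers with DMSO (0.65 ± 0.15 log2, adjusted p = 0.0015, against 0.178 without the block) and in refed livers with DMSO (1.11 ± 0.30 log2, adjusted p = 0.0136, against 0.0774). With the block 39.1% and 31.7% of all rows passed upward in these 2 comparisons. The refed total RNA means of Ahsp were 6.26 with rapamycin and 5.75 with DMSO, both under 6.70.

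Car1 was loaded higher in hepatectomy livers with rapamycin, at 0.75, 0.55 and 0.52 log2 per liver (0.61 ± 0.15, adjusted p = 0.0081), and so 2 of the 9 genes passed upward there, where 27.8% of all rows did. The Car1 mean in that total RNA was 6.38, under 6.70, so this loading is a value of these arrays only. With DMSO the Car1 values were 0.03, 0.39 and 0.47 (0.30 ± 0.15 log2, adjusted p = 0.137, or 0.0290 with the liver as a block). Its means with DMSO were 6.52 in polysome RNA and 6.23 in total RNA, both under 6.70. Epb42 was above 0 in 11 of 12 adult livers and passed with the liver as a block, at 0.42 ± 0.11 (adjusted p = 0.0034) and 0.29 ± 0.11 log2 (adjusted p = 0.0254) in hepatectomy livers with rapamycin and with DMSO, and at 0.55 ± 0.14 log2 (adjusted p = 0.0117) in refed livers with DMSO, against 0.0547, 0.157 and 0.181 without it. Alas2 passed in 1 comparison with the block, hepatectomy with rapamycin (0.36 ± 0.14 log2, adjusted p = 0.0456), where 38% of all rows passed upward with the block.

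In fetal livers most of the 9 genes lay slightly under 0. With DMSO 8 of 9 were lower in polysome RNA, with a median of −0.11 log2, beside 0.04 for all rows. None passed without the block with either treatment, where 15.9% of all rows passed in either direction with rapamycin and 14.5% with DMSO. With the liver as a block, Hbe1 was lower in 4 of 4 fetal livers with DMSO (−0.49, −0.24, −0.76 and −0.74 log2, −0.56 ± 0.12, adjusted p = 0.0061) and Gata1 in 3 of 4 (−0.46 ± 0.15, adjusted p = 0.0436). With rapamycin the Hbe1 values were −0.15, 0.49, −0.15 and 0.14 log2, on both sides of 0. Klf1 and Slc4a1 passed in none of the 6 comparisons of polysome with total RNA, with or without the block.

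The difference in loading between adult and fetal livers with DMSO was tested directly. Without the block none of the 9 genes passed, against 2.83% of all rows for hepatectomy and 10.3% for refeeding in either direction. With the liver as a block, Tfrc was loaded lower in both adult models than in fetal livers, at −0.97 ± 0.15 log2 after hepatectomy (adjusted p = 0.00092) and −0.61 ± 0.15 log2 after refeeding (adjusted p = 0.0055). With the block, Hbe1 was loaded higher in both, by 0.63 ± 0.17 (adjusted p = 0.0205) and 0.54 ± 0.17 log2 (adjusted p = 0.0268), and so were Ahsp, Epb42 and Car1 after refeeding, by 1.14 ± 0.31, 0.61 ± 0.18 and 0.51 ± 0.17 log2 (adjusted p 0.0115 to 0.0352). In the blocked fits 15.6% and 28.3% of all rows passed. The adult values of Hbe1, and of Car1 after refeeding, were under 6.70 in both fractions and that of Ahsp after refeeding in total RNA, so for these genes no adult loading was measured above that limit. Between hepatectomy and refeeding none of the 9 passed in either fit, where 0% of all rows passed without the block (273 at an unadjusted p under 0.05) and 0.0737% with it. The fractions of a liver correlated in their deviations from the group means at 0.33 to 0.82, so they were treated as pairs.

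Other iron genes were also lower in polysome RNA of adult livers. The iron list also holds Tfrc, which is counted below in both adult models. In hepatectomy livers with DMSO, 7 of 17 tested iron genes, Tfrc included, were lower in polysome RNA and 1 was higher, where 15% of all rows passed downward. Ferritin heavy chain Fth1, which stores iron, was at −1.04 ± 0.11 log2, the second transferrin receptor Tfr2 at −0.89 ± 0.14 and the iron exporter Slc40a1 at −0.78 ± 0.11, all past the threshold. In refed livers with DMSO, 5 of 17 were lower, among them Tfrc itself, Fth1 (−1.21 ± 0.08) and Tfr2 (−0.81 ± 0.12), where 5.14% of all rows passed downward. In fetal livers with DMSO, Slc40a1 (−0.69 ± 0.14) and Fth1 (−0.32 ± 0.10) passed, 2 of 17, where 6.38% of all rows passed downward. Of the heme-synthesis and maturation genes, 5 of 15 and 8 of 21 were higher in polysome RNA of hepatectomy livers with DMSO, led by Uros (1.05 ± 0.09 log2) and by the ubiquitin-conjugating enzyme Ube2l6 (1.37 ± 0.14), where 28.8% of all rows passed upward. In refed livers these counts were 0 of 15 and 0 of 21 with rapamycin, where 3.27% of all rows passed upward, and 4 of 15 and 6 of 21 with DMSO, where 19.5% did. The shares lay near those of all rows.

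Rapamycin was then compared with DMSO in each model and fraction. After partial hepatectomy, Tfrc fell in total RNA. It had 9.92, 9.77 and 10.26 log2 with rapamycin, against 10.85, 10.89 and 10.69 with DMSO. The groups did not overlap, and the difference was −0.83 ± 0.20 log2 (1.77-fold lower, adjusted p = 0.0366). It was the only one of the 9 genes past the threshold there, where 3.54% of all rows passed downward and 1.47% upward. The call was lost with cyclic loess scaling (adjusted p = 0.0540), with arrays centred on their medians (0.0569), with all 40 arrays in the fit (0.162), and in each fit that left out 1 liver other than DMSO replicate 1 (0.0837 to 0.160), while the value ran from −0.97 to −0.72. In polysome RNA Tfrc had 9.11, 8.80 and 9.24 log2 with rapamycin, against 9.75, 9.68 and 8.99 with DMSO. These overlapped, at −0.42 ± 0.20 log2 (adjusted p = 0.202).

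The other 8 genes lay on the opposite side in hepatectomy polysome RNA, with positive differences from 0.18 to 0.74 log2, and none of the 9 passed the threshold, where 2.26% of all rows passed upward and 4.1% downward. Epb42 had 8.14, 8.25 and 8.53 log2 with rapamycin, against 7.42, 7.88 and 7.97 with DMSO (0.55 ± 0.16, adjusted p = 0.0612). Car1 had 6.81, 6.99 and 7.16 with rapamycin, against 6.33, 6.48 and 6.75 with DMSO (0.46 ± 0.15, adjusted p = 0.0877). Its mean with DMSO, 6.52, was under 6.70. Hbe1 had 6.29, 6.28 and 6.29 with rapamycin, against 6.07, 5.89 and 5.48 with DMSO (0.47 ± 0.15, adjusted p = 0.0742), all of them under 6.70. The groups of these 3 genes, of Ahsp (0.74 ± 0.38, adjusted p = 0.240) and of Klf1 (0.18 ± 0.10, adjusted p = 0.298) did not overlap, which made 5 of 9, where 11.3% of all rows were without overlap upward.

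The median of the 9 genes in hepatectomy polysome RNA was 0.46 log2, beside −0.01 for all rows, and in total RNA it was 0.16, beside −0.01. Epb42 passed in polysome RNA under both other scalings (0.61 and 0.62 log2), Car1 with arrays centred on their medians (0.53 log2), and Hbe1 and Gata1 without DMSO replicate 1 (0.60 and 0.38 log2). The polysome means of Hbe1 and Gata1 were under 6.70 with both treatments, and that of Car1 was under it with DMSO. In total RNA the remaining 8 differences ran from 0.10 (Klf1) to 0.43 log2 (Epb42) and none passed. Of these 8, Hbe1 and Epb42 were without overlap, where 13% of all rows were upward and 17.8% downward. All these Hbe1 arrays were under 6.70. The differences of Ahsp (0.11) and Alas2 (0.31) turned below 0 when single livers were left out. Among related lists, the membrane genes had 1 of 16 up in each fraction, the water channel Aqp1 (1.01 ± 0.13 log2 in polysome RNA), which endothelial cells also carry. The globin list had 0 of 5 called in each fraction, and the heme-synthesis list had 1 of 15 down in polysome RNA, the coproporphyrinogen oxidase Cpox (−0.47 ± 0.12).

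Marker genes of other cells also moved in the hepatectomy comparison. The shares of all rows called there were 2.26% up and 4.1% down in polysome RNA, and 1.47% up and 3.54% down in total RNA. Of 10 endothelial markers, 3 rose in each fraction (Emcn, Plvap and Tek, at 0.62 to 0.88 log2), and the list level ran from 9.77 to 9.89 log2 in polysome RNA with rapamycin, against 9.21 to 9.66 with DMSO. The mitosis list had 23 of 25 down in total RNA and 20 of 25 in polysome RNA, with levels of 7.75 to 9.09 log2 with rapamycin, against 9.65 to 10.32 with DMSO, in total RNA. Macrophage markers had 1 of 13 up in polysome RNA. Their part in the values of the 9 genes was not tested.

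In fasted/refed livers none of the 9 genes passed, and neither did any other row in limma in either fraction (526 rows in polysome RNA and 1832 in total RNA had an unadjusted p under 0.05). With the numbered block, 2 rows (0.0184%) passed downward in polysome RNA and 0% in total RNA, none of them one of the 9. In polysome RNA the groups of Alas2 (0.37 ± 0.40 log2) and Gata1 (−0.24 ± 0.15 log2, all arrays under 6.70) did not overlap (adjusted p = 1.00 each), where 8.66% of all rows were without overlap upward and 9.17% downward. The widest of the 9 differences was that of Alas2 in total RNA, with 9.47, 10.92 and 9.31 log2 with rapamycin, against 8.42, 9.51 and 8.27 with DMSO (1.16 ± 0.40, adjusted p = 0.237). The highest DMSO array lay above 2 of the 3 rapamycin arrays. Alas2 passed with all 40 arrays in the fit and without DMSO replicate 2 (1.55 log2, adjusted p = 0.0391), a fit in which 1403 rows passed. Tfrc lay in the same direction as after hepatectomy, at −0.38 ± 0.17 log2 in total RNA (adjusted p = 0.298) and −0.21 ± 0.17 in polysome RNA (adjusted p = 1.00), and its total RNA groups did not overlap, where 5.11% of all rows were without overlap downward.

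In fetal livers, where these genes were highest, rapamycin gave no call among the 9 or in any row, in limma with or without the pairing of replicate numbers (247 rows in polysome RNA and 199 in total RNA had an unadjusted p under 0.05 without it). Differences ran from −0.13 (Tfrc) to 0.62 log2 (Hbe1) in polysome RNA and from −0.10 (Ahsp) to 0.30 log2 (Klf1) in total RNA. The widest was Hbe1 in polysome RNA, with 13.59, 13.58, 11.64 and 12.07 log2 with rapamycin, against 12.99, 13.21, 11.19 and 10.999 with DMSO. Within each replicate number the rapamycin array was higher, by 0.60, 0.37, 0.45 and 1.07. The fit gave 0.62 ± 0.63 log2 without the block (adjusted p = 1.00) and ± 0.14 with it (adjusted p = 0.301). In total RNA the same differences of Hbe1 were 0.26, −0.36, −0.16 and 0.19 log2. The fetal replicate numbers paired rapamycin with DMSO arrays, with correlations of deviations between 0.42 and 0.75 in 8 of 8 pairs.

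**Figure D4:**
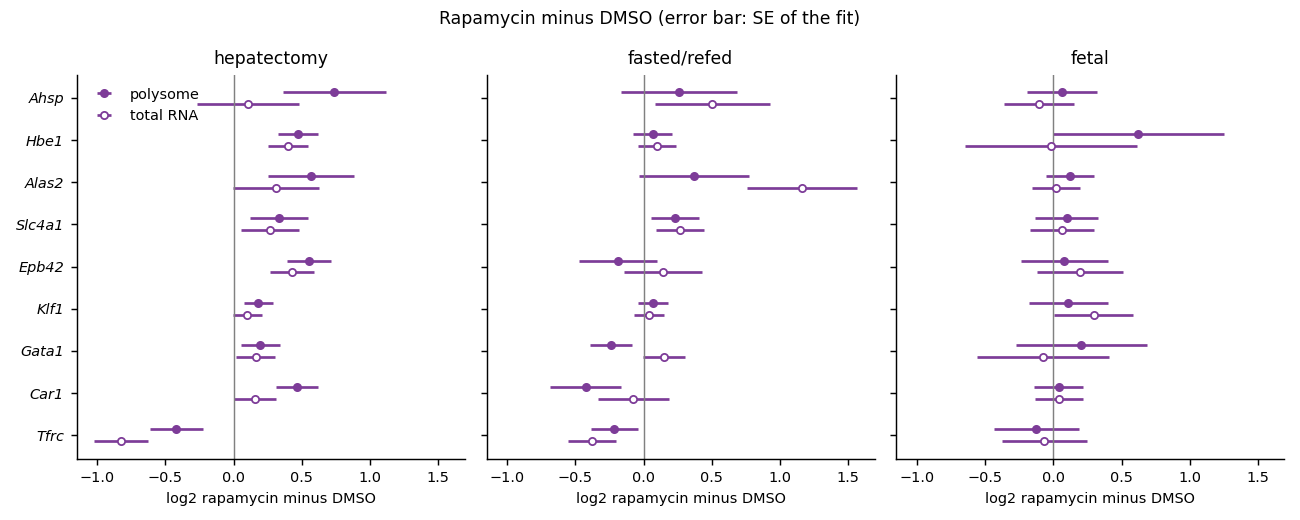
Log2 rapamycin minus DMSO for the 9 genes in each model, filled points for polysome RNA and open points for total RNA, with bars for the standard error of the fit. After hepatectomy Tfrc lies below 0 and the other 8 genes above it, and in fetal livers all points but that of Hbe1 in polysome RNA lie within 0.3 log2 of 0.

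None of the 9 genes passed the test of whether the rapamycin difference differed between polysome and total RNA. No row passed that interaction test in any model, with or without the block (158, 266 and 45 rows had an unadjusted p under 0.05 in hepatectomy, fasted/refed and fetal livers). The F-test of the rapamycin effect between the 3 models also passed for none of the 9, where 0.0368% of all rows passed in polysome RNA and 0.424% in total RNA. The fall of Tfrc after hepatectomy was therefore not shown to differ from its values in the other models.

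Within the fetal groups the levels of these genes split by replicate number. Replicates 1 and 2 were above replicates 3 and 4 in all 4 fetal groups for 8 of the 9 genes and in 3 of 4 groups for Klf1. Of all rows tested, 7.08% had that pattern and 14.7% the opposite one. Hbe1 showed it most, with means over the 4 groups of 13.45 and 13.33 log2 in replicates 1 and 2 and 11.64 and 11.68 in replicates 3 and 4. For Gata1 these means were 11.26, 11.46, 10.21 and 9.97, and for Alas2 13.59, 13.64, 13.20 and 13.15. The medians of whole arrays split by number too, with replicates 1 and 2 below 3 and 4 in all 4 fetal groups. With DMSO they were 7.17, 7.15, 7.32 and 7.29 log2 in polysome RNA and 7.24, 7.19, 7.28 and 7.39 in total RNA. The part of this difference in scale in the levels of the 9 genes was not tested. The titles give the numbers no meaning beyond naming biological replicates. The sample descriptions number the same fetal samples 1, 3, 4 and 5, in the same order in every fetal group, so both numberings give the same pairs.

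**Figure D5:**
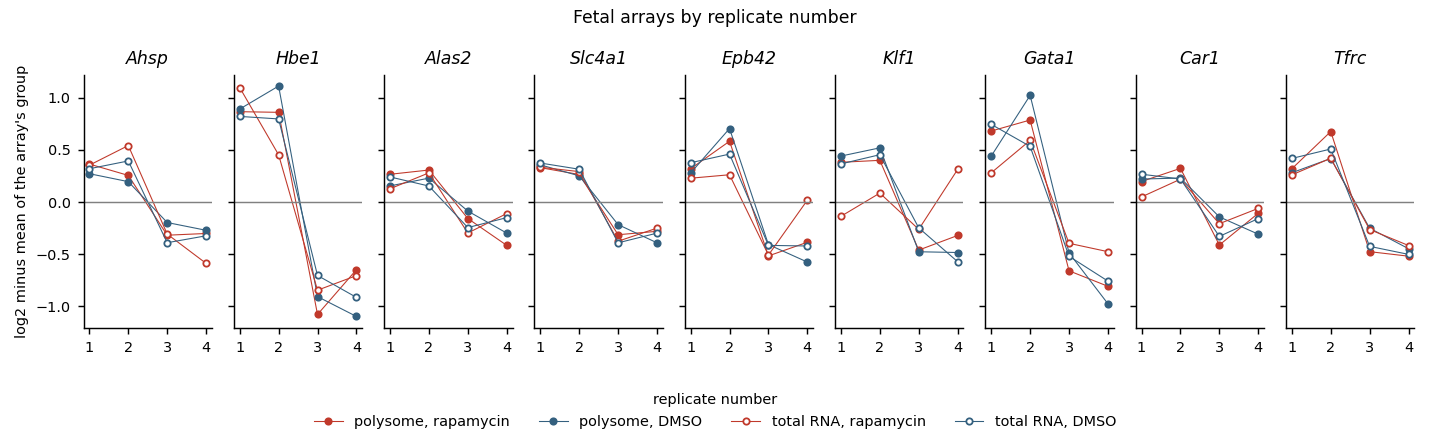
Log2 intensity of the 9 genes on the 16 fetal arrays, minus the mean of the array's group, by replicate number; filled points are polysome RNA, open points total RNA, red rapamycin and blue DMSO. Replicates 1 and 2 lie above 3 and 4 except for Klf1 in total RNA with rapamycin.

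Over the 16 fetal arrays, correlations between the 9 genes' deviations from group means ran from 0.63 to 0.97 with a median of 0.92 over 36 pairs, and over the 24 adult arrays from −0.45 to 0.75 with a median of 0.24. The fetal arrays of 1 number share a difference in level, and both fractions of a liver enter, so these are descriptions. The genes whose fetal deviations ran most like the mean of the 9 were Ncapd3 (r = 0.991), Dyrk3 and Tmpo (0.989 each), and H1f4 and Kif4a (0.988 each). Marker lists split by number too. Mitosis genes averaged 9.96 and 10.15 log2 in replicates 1 and 2, and 9.35 and 9.30 in replicates 3 and 4, and hepatocyte genes averaged 12.16 and 12.22, and 12.57 and 12.53. Granulocyte markers averaged 8.94, 8.94, 9.01 and 9.02 in replicates 1 to 4. The part of these in the values of the 9 genes was not tested.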

How the data were processed

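The deposited values were linear intensities, 1 per transcript cluster and array, for 40 arrays of 12 groups. They had been background-corrected, normalized and summarised with RMA, which the submitters' processing notes name. Its version was not given in the sources used here, nor was the probes' genome build. Intensities ran from 3.77 to 28447 and were converted to log2 without a pseudocount, so all log2 values are computed from the deposited intensities. The number of arrays limits the precision. Titles set the groups: the time-point label of 3 hepatectomy polysome arrays with DMSO speaks of refeeding and was not followed.

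Of 28826 rows, 15209 carried 1 gene symbol, 306 several and 13311 none in the platform annotation. Rows with at least 1 symbol and a mean of at least the 30th percentile of such rows (6.70 log2) were tested, so rows with several symbols were not left out. These were 10860 rows, and those with exactly 1 symbol stood for 10203 genes. Differences were tested with limma 3.58.1 in R 4.3.3 (group means, contrasts, eBayes with an intensity trend), two-sided, with Benjamini-Hochberg adjustment over all rows tested and a threshold of 0.05. Rapamycin, the interaction and polysome against total RNA were fitted on the arrays of 1 model, and comparisons between models and the F-test on all 40 arrays. Tables and plots were made with python 3.11.15, pandas 2.3.3 and matplotlib 3.10.9. The limma step was tested on simulated data.

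The 9 genes and the gene lists were chosen with earlier results of these data known. Genes outside the 9 are named if they pass the threshold in a list, at most 4 per list and comparison by size of difference, or if they are among the 5 that correlate best with the mean of the 9. Alternatives were no filter, a filter at the 50th percentile, cyclic loess scaling, arrays centred on their medians, no trend, all 40 arrays in the fit, a replicate block and leaving out each liver. Polysome and total RNA arrays of a liver, linked by the labels' numbers, correlated at 0.33 to 0.82 in their deviations from group means in 20 of 20 pairs and were taken as pairs. In fetal livers 6 of 8 correlated best with their own number, and rapamycin livers 1 and 4 slightly better with another (0.417 against 0.500 and 0.328 against 0.387). Descriptions number the fetal samples 1, 3, 4 and 5 where titles count 1 to 4, which gives the same pairs. Rapamycin and DMSO arrays of 1 number did so in fetal livers (0.42 to 0.75), but not after hepatectomy (−0.07 to 0.28) or refeeding (−0.62 to 0.39). Promoter windows came from RefSeq tables of GRCr8.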

Additional observations from a re-analysis of the deposited data

Results flagged for a closer look

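With the liver as a block, limma found 7 differences in polysome loading between an adult model and fetal livers, all with DMSO, past the threshold. Each is a difference between models in the same contrast of polysome minus total RNA, and none of the 7 passed without the block. Hepatectomy minus fetal livers gave 0.63 log2 for Hbe1 (adjusted p = 0.0205) and −0.97 log2 for Tfrc (adjusted p = 0.00092). Fasted/refed minus fetal livers gave 1.14 log2 for Ahsp (adjusted p = 0.0115), 0.54 for Hbe1 (adjusted p = 0.0268), 0.61 for Epb42 (adjusted p = 0.0178), 0.51 for Car1 (adjusted p = 0.0352) and −0.61 for Tfrc (adjusted p = 0.0055). For 4 of the 7 values adult levels were under 6.70 log2, in both fractions for Hbe1 (both values) and Car1 and in total RNA for Ahsp. The blocks rest on the labels' numbers; in fetal livers with DMSO 4 of 4 polysome arrays correlated best with the total RNA array of their own number, at 0.627 to 0.693, against 0.600 to 0.610 for the best of the others. Among 36 sets of 4 fetal arrays, 1 per gene and fetal group, no array stood apart by Dixon's limit.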

How the results depend on the processing

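For 132 values of single genes past no threshold only the direction was followed, and 57 of them turned direction under some alternative. The other 84 values of single genes were carried through all alternatives, which gave 996 values. Of these, 934 kept their direction and their side of the threshold, 28 lost a call, 31 gained one and 3 turned direction. The 3 were rapamycin differences in hepatectomy total RNA, which passed no threshold: Ahsp ran from −0.25 to 0.50 log2 and Alas2 from −0.0037 to 0.52 when 1 liver was left out (Ahsp −0.25 without rapamycin replicate 3 and −0.03 without DMSO replicate 2). The count of the 9 genes past the threshold for rapamycin in hepatectomy polysome RNA was 0, with 1 under cyclic loess, 2 with median centring, 2 with the replicate block and 0 to 2 when 1 liver was left out. In hepatectomy total RNA it was 1, with 0 under loess, 0 with median centring, 0 with all 40 arrays, 2 with the replicate block and 0 to 2 without 1 liver. In fasted/refed total RNA it was 0, with 1 with all 40 arrays and 0 to 1 without 1 liver. For polysome against total RNA, pairing by the liver block changed the counts from 3 to 5 (hepatectomy, rapamycin), 1 to 4 (hepatectomy, DMSO), 1 to 3 (refed, DMSO), 0 to 1 (fetal, rapamycin) and 0 to 3 (fetal, DMSO), and the differences between adult and fetal loading from 0 to 2 (hepatectomy) and 0 to 5 (refeeding). With all 40 arrays the count was 0 in refed livers with rapamycin and 2 with DMSO, and without 1 liver it was 0 in the first. Hepatectomy against refeeding in total RNA gave 3, and 0 to 3 without 1 liver. The F-test in total RNA gave 0, and 0 to 1 without 1 liver. Counts over all rows moved more: rapamycin in hepatectomy polysome RNA called 690 rows, 193 to 1481 under other settings and 16 to 1890 without 1 liver, and in total RNA 544, 217 to 1246 and 6 to 1333. In refed total RNA 0 rows became up to 349 and 1403. Polysome against total RNA called 4586 rows in hepatectomy livers with rapamycin (2671 to 6474), 4758 with DMSO (2840 to 6629), 469 in refed livers with rapamycin (5 to 2172), 2679 with DMSO (924 to 4615), 1732 in fetal livers with rapamycin (1094 to 3165) and 1573 with DMSO (522 to 3044). Loading between adult and fetal livers called 307 (9 to 1695) and 1119 rows (78 to 3068), and the F-test 4 (2 to 209) and 46 (2 to 1253). Median centring moved the median of all rows by over 0.1 log2 in 9 of 24 comparisons, at most by 0.24 log2 (refed minus fetal in total RNA, 0.20 with centring and −0.04 without), and cyclic loess in 1 of 24 (−0.10, polysome minus total RNA in refed livers with DMSO). Averaging several rows of a gene changed nothing, since each gene had 1 row. The cause of these shifts was not tested.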
